A study of Homo sapiens with 18 samples.

Results

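Expression of 8 genes of cholesterol synthesis was examined in RNA sequencing data of a thyroid cancer line in which Dicer1, the ribonuclease that cuts miRNA precursors into mature miRNAs, was reduced. The genes were chosen by name from the 58302 genes of the table. They were SREBF2, which encodes the transcription factor SREBP-2, its regulator INSIG1, and 6 enzymes of the pathway, HMGCS1, IDI1, FDFT1, SQLE, LSS and DHCR7. The list was proposed as one of synthesis and uptake, but none of the 8 genes encodes an uptake receptor, and they are called cholesterol synthesis genes here. Whether their mRNA moved when Dicer1 was lowered was the question put to the data.

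The 18 libraries formed 6 groups of 3. TPC1 is a human papillary thyroid carcinoma line and carried wild-type Dicer1. D11 is a Dicer1 (+/-) derivative of TPC1 made with CRISPR-Cas9 and is a single clone, so that clone and genotype cannot be told apart. Cells of each line were left without transfection (NT), given a negative control siRNA (NC) or given an siRNA that targets Dicer1 (siDicer). The siRNAs were used at 5 nM in a lipid reagent, and RNA was collected at day 4. All groups grew in the same medium with serum. The methods of the study say in general that experiments were repeated independently, but the labels do not say that the 3 replicates of a group were separate cultures. If they were not, p-values measure only the spread between these libraries, which may be technical. For 12 of the 18 samples the title gives another group than the description. The descriptions match the names of the data columns and were followed here.

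Cholesterol is made from acetyl-CoA through mevalonate, isoprenoids, squalene and lanosterol. SREBP-2 is held in the endoplasmic reticulum with SCAP by INSIG proteins when sterols are plentiful. When sterols are scarce it is carried to the Golgi and cut, and its free end turns on the genes of the pathway, INSIG1 and its own gene included. An intron of SREBF2 also holds the precursor of miR-33a, a miRNA known to repress cholesterol efflux and fatty acid oxidation genes, and like most miRNAs it needs Dicer1 for its maturation. Thyroid cells use the pathway for their membranes, as other dividing cells do.

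The miRNA is shown because its precursor lies within SREBF2 and needs Dicer1, and the promoters because genes of this pathway are known to share SREBP-2 as an activator. SREBF2 lies at chr22:41833105-41907306 on the plus strand of GRCh38, and hsa-miR-33a-5p lies at chr22:41900949-41900969, in intron 16 of its canonical transcript of 19 exons. The mature sequence from RefSeq (GRCh38.p14) is given 5′ to 3′, with the seed, bases 2 to 8, in capitals.
hsa-miR-33a-5p: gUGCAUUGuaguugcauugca

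The RefSeq tables hold a promoter window of 300 bases around a transcription start for 6 of the 8 genes, with 10 windows in all. The windows of the 2 regulators and of the first enzyme of the set are given 5′ to 3′ on the strand of the gene. The SREBF2 window is chr22:41832855-41833154 (plus strand), the INSIG1 window is chr7:155297628-155297927 (plus strand) and the HMGCS1 window is chr5:43313363-43313662 (minus strand). Capitals mark matches, on either strand, to TCACNCCAC, a form of the sterol regulatory element, to CCAAT, which reads ATTGG on the other strand, and to the E-box CACGTG, which reads the same on both.
SREBF2: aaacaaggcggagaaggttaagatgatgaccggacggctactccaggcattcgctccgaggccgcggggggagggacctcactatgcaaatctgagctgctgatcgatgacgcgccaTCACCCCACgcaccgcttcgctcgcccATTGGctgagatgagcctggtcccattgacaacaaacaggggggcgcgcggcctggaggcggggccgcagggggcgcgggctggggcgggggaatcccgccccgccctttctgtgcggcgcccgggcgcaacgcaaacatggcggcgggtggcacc
INSIG1: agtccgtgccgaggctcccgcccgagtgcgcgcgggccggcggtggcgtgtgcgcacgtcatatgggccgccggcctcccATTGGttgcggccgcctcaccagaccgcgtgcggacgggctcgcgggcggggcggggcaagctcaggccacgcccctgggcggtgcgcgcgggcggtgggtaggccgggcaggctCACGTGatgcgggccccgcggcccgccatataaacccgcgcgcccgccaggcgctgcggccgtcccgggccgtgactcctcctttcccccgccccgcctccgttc
HMGCS1: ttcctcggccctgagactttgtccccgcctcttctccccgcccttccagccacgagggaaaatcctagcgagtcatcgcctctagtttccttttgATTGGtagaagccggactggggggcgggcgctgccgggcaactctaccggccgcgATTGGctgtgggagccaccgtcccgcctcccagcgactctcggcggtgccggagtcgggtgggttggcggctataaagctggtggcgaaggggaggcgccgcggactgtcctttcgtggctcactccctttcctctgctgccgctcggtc
TCACNCCAC stood in 1 of the 10 windows, that of SREBF2, 133 bases before the start, and in 1.13% of the 35116 promoter windows of the table. CCAAT stood in 7 of the 10 windows and in 34.61% of all windows. CACGTG stood in 2 of the 10, those of INSIG1 and LSS, and in 7.26% of all windows. A match of letters is a description and not a binding site, and these libraries did not measure binding.

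Seed matches of miR-33a in 3′ untranslated regions (UTRs) are shown for the efflux transporter ABCA1 and for CROT, which acts on medium-chain acyl groups in peroxisomes, because both are textbook targets whose mRNA is followed below. Capitals mark the seed match. The sites are at chr9:104782829-104782854 (ABCA1, minus strand), chr7:87398846-87398871 and chr7:87398922-87398947 (CROT, plus strand).
ABCA1: ttttttaattgcaaCAATGCAaaagc
CROT first site: ctctgatgcagcagCAATGCAaatta
CROT second site: tctacaaactttaaCAATGCAagtct
ABCA1 held 4 such matches, of which the last is shown, and CROT 2. Of 19548 canonical transcripts with a 3′ UTR, 8.4% held at least 1 match, and of the 8 cholesterol synthesis genes only LSS did, with 1.

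Values are reads per gene scaled by the authors to 20 M aligned reads per library and are called normalised values. Depth was 11.3 to 23.2 M reads per library, and 1 read was worth 0.861 to 1.77 in these units. Counting error, taken as Poisson, was at most 0.079 on the log2 scale in any library for the 8 genes (INSIG1, at its fewest 337 reads). DICER1 itself had normalised values of 1397 to 2492 in the 6 TPC1 control libraries (NT and NC) and 246 to 395 in the 3 siDicer libraries. In D11 it had 655 to 1536 in control libraries and 277 to 451 with siDicer, so that the siDicer libraries stood apart from the controls as described. DICER1 ranges of the 2 lines' controls overlapped, so that they check neither the line of a control library nor, by themselves, NT against NC. The log2 change was -2.65 ± 0.21 (SE, limma adjusted p = 0.000337) in TPC1 and -1.77 ± 0.25 (adjusted p = 0.000649) in D11. D11 controls were below TPC1 controls (-0.68, adjusted p = 0.00561). NC libraries lay above NT libraries without overlap in each line (0.58 in TPC1, adjusted p = 0.133, and 0.72 in D11, adjusted p = 0.153), and the D11 difference was called with the replicate number as a block (adjusted p = 0.046). In D11, 10.8% of all genes were higher in NC than NT without overlap, and 1.75% were called with the block. The share without overlap in TPC1 is not given here. The thyroid factor PAX8 was high in all 18 libraries (7361 to 14886), FOXE1 stood at 61 to 214 and TG at 32 to 124, while TSHR, SLC5A5 and NKX2-1 were between 0 and 2. The epithelial keratins KRT8 and KRT18 were abundant and KRT19 and EPCAM were at 8 or less. Of 7 markers of other cell types, CD68 (763 to 1960) and COL1A1 (35 to 134) were measured and the other 5 stood at 12 or less in every library.

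All 8 genes passed the filter on low values in every comparison. Values were also given per kilobase of exon, where the length joins all annotated exons of a gene. This length can exceed that of the transcript expressed, by an extent that differs between genes, so the order of the genes is only rough. On this scale SREBF2 had the highest group mean in TPC1 NT (743.8 ± 268.8, SD, n = 3), followed by SQLE (659.5 ± 129.9), and these 2 did not differ beyond their spread. FDFT1 (489.8 ± 113.8), INSIG1 (469.1 ± 174.9) and LSS (447.6 ± 112.9) lay within one SD of each other. IDI1 (355.3 ± 24.3), DHCR7 (293.5 ± 59.6) and HMGCS1 (239.8 ± 65.5) were the lowest, and DHCR7 and HMGCS1 did not differ beyond their spread.

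SREBF2 passed no test with siDicer. Its normalised values in TPC1 were 4039, 8318 and 5612 (NT), 3116, 6701 and 4408 (NC) and 4679, 6422 and 5077 (siDicer). In D11 they were 2547, 5245 and 5393 (NT), 2440, 5497 and 3967 (NC) and 3451, 4870 and 5418 (siDicer). The siDicer libraries lay inside the range of the controls in TPC1 and in D11. The log2 change, siDicer minus control, was 0.07 (95% interval -0.51 to 0.65) in TPC1 and 0.19 (-0.40 to 0.77) in D11, with limma adjusted p = 0.889 and 0.661.

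INSIG1 had the lowest siDicer values relative to control of the 8 genes, with a mean at 49.3% (TPC1) and 55.0% (D11) of that of the controls. In TPC1 it measured 1088, 2364 and 1685 (NT), 598, 2325 and 1442 (NC) and 541, 1117 and 683 (siDicer). In D11 it measured 743, 1465 and 1669 (NT), 555, 1639 and 1125 (NC) and 519, 688 and 771 (siDicer). In each line the siDicer libraries were low but overlapped the controls, through the first NC and the first NT library of the line. The log2 change was -0.94 (95% interval -1.81 to -0.08) in TPC1 and -0.77 (-1.45 to -0.09) in D11. Neither passed adjustment over all genes (limma adjusted p = 0.133 and 0.0969). In D11, where the replicate numbers were taken to pair libraries, a fit with the replicate number as a block gave adjusted p = 0.00896 for the same log2 change and called INSIG1 lower, as it did 7.49% of all genes. TPC1 numbers were not taken to pair libraries, since only 8 of 9 same-number pairs correlated over 0.1 in their deviations from group means (0.099 to 0.542). The D11 pairs ran from 0.108 to 0.504, so the different treatment of the lines rests on a single TPC1 pair just under the threshold. The same fit in TPC1 also called INSIG1 lower (limma adjusted p = 0.00717), and the share of all genes it called lower there is not given here. Within the 3 numbered D11 sets, the difference between siDicer and the mean of NT and NC was -0.31, -1.17 and -0.83 on the log2 scale. In the 3 TPC1 sets it was -0.575, -1.069 and -1.189. The call also depended on single libraries, since INSIG1 was called lower without the first NC library in TPC1 (-1.20, adjusted p = 0.0262) and in D11 (-0.97, adjusted p = 0.014), and in D11 with NT alone as the control (-0.91, adjusted p = 0.0343). Against NC alone, in the fit with the replicate block, the change was smaller, -0.76 in TPC1 and -0.63 in D11. That fit was added after the data were seen and called INSIG1 lower in each line. The planned fit against NC alone, without the block, called it in neither line. In the sets numbered 1, siDicer minus NC was only -0.144 in TPC1 and -0.097 in D11.

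**Figure D1:**
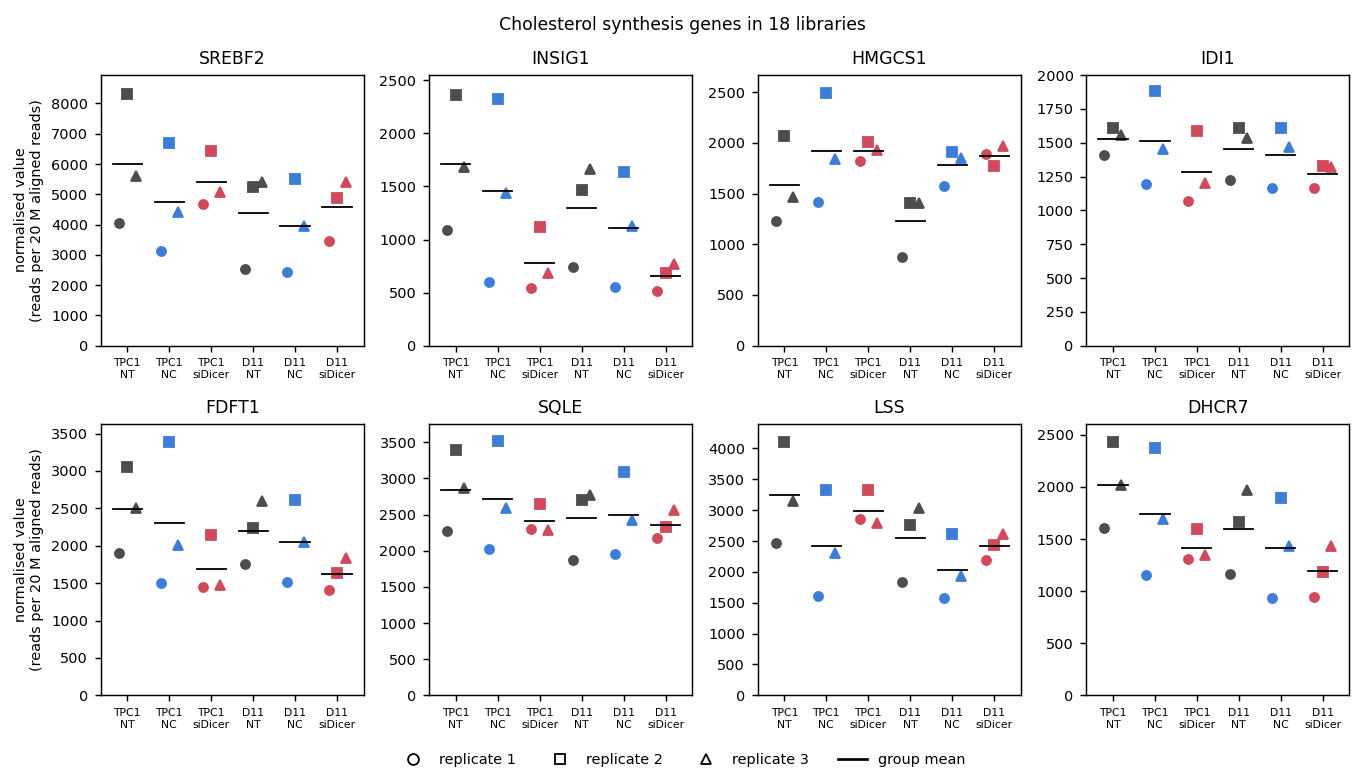
Normalised value (reads per 20 M aligned reads, linear axis from 0) of each of the 8 genes in the 18 libraries, by group, with a symbol for each replicate number and a line at the group mean. INSIG1 in siDicer libraries sits at 519 to 1117, overlapping controls of 555 to 2364, while SREBF2 in siDicer libraries lies inside the control range.

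HMGCS1, which makes HMG-CoA and opens the mevalonate branch, was the only enzyme of the set with a positive change of over 0.3 in a siDicer comparison. In TPC1 it measured 1227, 2070 and 1470 (NT), 1419, 2491 and 1845 (NC) and 1819, 2011 and 1926 (siDicer). In D11 it measured 871, 1403 and 1405 (NT), 1576, 1907 and 1853 (NC) and 1888, 1769 and 1967 (siDicer). All D11 NC and siDicer libraries were above all D11 NT libraries, while NC and siDicer overlapped. The log2 change, siDicer minus control, was 0.17 (95% interval -0.25 to 0.60) in TPC1 and 0.36 (-0.07 to 0.79) in D11, and neither passed (limma adjusted p = 0.595 and 0.21). The D11 value depended on which control was used. Against NT alone it was 0.65 (adjusted p = 0.0243), which is called higher, and against NC alone 0.08 (adjusted p = 0.635).

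FDFT1, squalene synthase, had log2 changes of -0.47 (95% interval -1.0 to 0.06) in TPC1 and -0.37 (-0.73 to -0.01) in D11. Its TPC1 normalised values were 1899, 3055 and 2510 (NT), 1502, 3386 and 2015 (NC) and 1446, 2149 and 1470 (siDicer), and its D11 values were 1755, 2243 and 2597 (NT), 1512, 2606 and 2048 (NC) and 1411, 1639 and 1836 (siDicer). The siDicer libraries lay at the low end of the controls and overlapped them in TPC1 and D11 alike. DHCR7, which reduces 7-dehydrocholesterol in the last step of one branch, had changes of -0.37 (-0.83 to 0.09) in TPC1 and -0.32 (-0.79 to 0.16) in D11. Its siDicer values were 1310, 1594 and 1345 in TPC1, against 1151 to 2427 in the 6 controls, and 946, 1187 and 1438 in D11, against 931 to 1969. None of these 4 changes passed (limma adjusted p = 0.21 and 0.135 for FDFT1, 0.261 and 0.329 for DHCR7).

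IDI1, the isopentenyl diphosphate isomerase, varied least between replicates. Its siDicer values of 1067, 1587 and 1203 in TPC1 stood against controls of 1196 to 1886, with a log2 change of -0.25 (95% interval -0.58 to 0.08), and its D11 values of 1164, 1331 and 1322 stood against 1165 to 1609 (-0.16, -0.43 to 0.10). SQLE, squalene epoxidase, measured 2295, 2642 and 2283 with siDicer in TPC1 against controls of 2029 to 3523 (-0.18, -0.54 to 0.18), and 2176, 2322 and 2569 in D11 against 1872 to 3085 (-0.05, -0.38 to 0.28). LSS, lanosterol synthase, measured 2864, 3328 and 2786 in TPC1 against 1616 to 4097 (0.14, -0.38 to 0.66), and 2190, 2437 and 2617 in D11 against 1569 to 3030 (0.11, -0.29 to 0.52). These 3 enzymes overlapped their controls in both lines and none passed the test, with limma adjusted p between 0.299 and 0.855.

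By the rule of an adjusted p under 0.05 and a change of at least 1.5-fold, 0 of the 8 genes were called with siDicer in TPC1, where 7.38% of the 18475 genes tested were called, and 0 of 8 in D11, where 12% of 18413 were. These fits held no replicate block, with which INSIG1 was called lower in each line, as given above. At an unadjusted p under 0.05, INSIG1 alone passed in TPC1 and INSIG1 and FDFT1 in D11, against 30.5% and 35.5% of all genes. The median log2 change of the 8 genes was -0.21 in TPC1, against -0.04 over all genes, and -0.11 in D11, against -0.04. Genes of the cell cycle moved with siDicer in the same libraries. Of 12 proliferation genes, siDicer lowered 5 in TPC1 (AURKA, BUB1, CCNA2, CCNB1 and PLK1), where 4.16% of all genes were called lower, and these 5 and RRM2 in D11, where 6.75% were. For AURKA, a mitotic kinase, the log2 change was -0.90 in TPC1 and -1.11 in D11 (limma adjusted p = 0.00267 and 6.19e-05). Over the list, the summed normalised values were 36704 to 49737 with siDicer against 46269 to 68670 in TPC1 controls, and 36452 to 49234 against 58612 to 68031 in D11. Their part in the values of the cholesterol genes was not tested. In bulk RNA, fewer cells with a transcript and less of it per cell cannot be told apart.

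**Figure D2:**
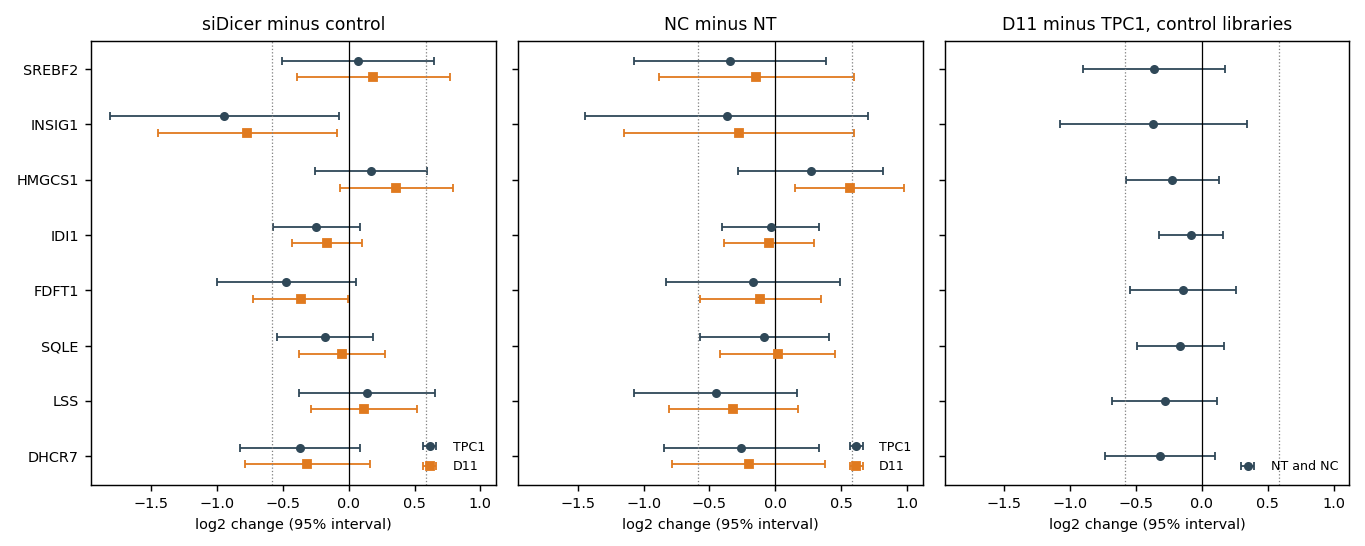
Log2 change of the 8 genes with 95% intervals from limma (x axis) for siDicer minus control and NC minus NT in TPC1 (circles) and D11 (squares), and for D11 minus TPC1 in control libraries, with dotted lines at a 1.5-fold change. The intervals of INSIG1 lie below 0 with siDicer in TPC1 and D11, and HMGCS1 is the gene whose interval lies above 0 for NC minus NT in D11.

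The interaction of line and siDicer asked whether the response differed between D11 and TPC1. It ran from -0.03 for LSS to 0.19 for HMGCS1 on the log2 scale, with intervals that all held 0, the widest being that of INSIG1 (0.18, 95% interval -1.01 to 1.36). No gene of 19181 was called by limma (percent called 0.0), and 171 (0.892%) had an unadjusted p under 0.05. A difference between the lines was not detectable for these genes at this spread.

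A negative control siRNA in lipid reagent was itself compared with no transfection. LSS had log2 changes, NC minus NT, of -0.45 (95% interval -1.07 to 0.16) in TPC1 and -0.32 (-0.81 to 0.17) in D11, and HMGCS1 was the gene with the largest positive change, 0.27 (-0.28 to 0.82) and 0.57 (0.15 to 0.98). SREBF2 (-0.34 and -0.15) and INSIG1 (-0.37 and -0.28) had negative changes whose intervals held 0. HMGCS1 in D11 was the only one of the 16 values whose groups did not overlap, where 10.8% of all genes were higher without overlap. None was called (limma adjusted p from 0.248 to 0.978, 0.111% of genes called in TPC1 and 0.35% in D11). With the replicate number as a block in D11, 1.75% of genes were called and still 0 of the 8, though HMGCS1 then reached adjusted p = 0.04 at a change under 1.5-fold.

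In control libraries the estimates of D11 minus TPC1 were below 0 for all 8 genes. SREBF2 differed by -0.36 (95% interval -0.90 to 0.17), INSIG1 by -0.37 (-1.08 to 0.34), DHCR7 by -0.32 (-0.74 to 0.10), LSS by -0.28 (-0.68 to 0.11), HMGCS1 by -0.23 (-0.58 to 0.13), SQLE by -0.16, FDFT1 by -0.14 and IDI1 by -0.08. The median was -0.25, against -0.01 over all genes, of which 51.7% lay below 0. Each interval held 0, none was called (limma adjusted p from 0.607 to 0.822) while 1.02% of 18814 genes were (0.872% lower). The 8 genes also move together between replicates, so that their shared sign is not 8 separate observations.

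The replicates of a group differed more for these genes than for most. The SD of log2 values within groups was 0.67 for INSIG1 and 0.50 for SREBF2, against a median of 0.18 over 12508 genes with a mean of at least 100, and 0.79% and 2.16% of those genes had a larger SD. DHCR7 (0.39), FDFT1 (0.38) and LSS (0.35) followed, then HMGCS1 (0.29), SQLE (0.28) and IDI1 (0.23). The library with replicate number 1 was the lowest of its group in 45 of 48 gene and group combinations, where 34.2% of genes had their lowest value in that library. Number 2 was the highest in 34 and number 3 in 14. What a number marks is not given in the labels, and the cause was not tested.

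**Figure D3:**
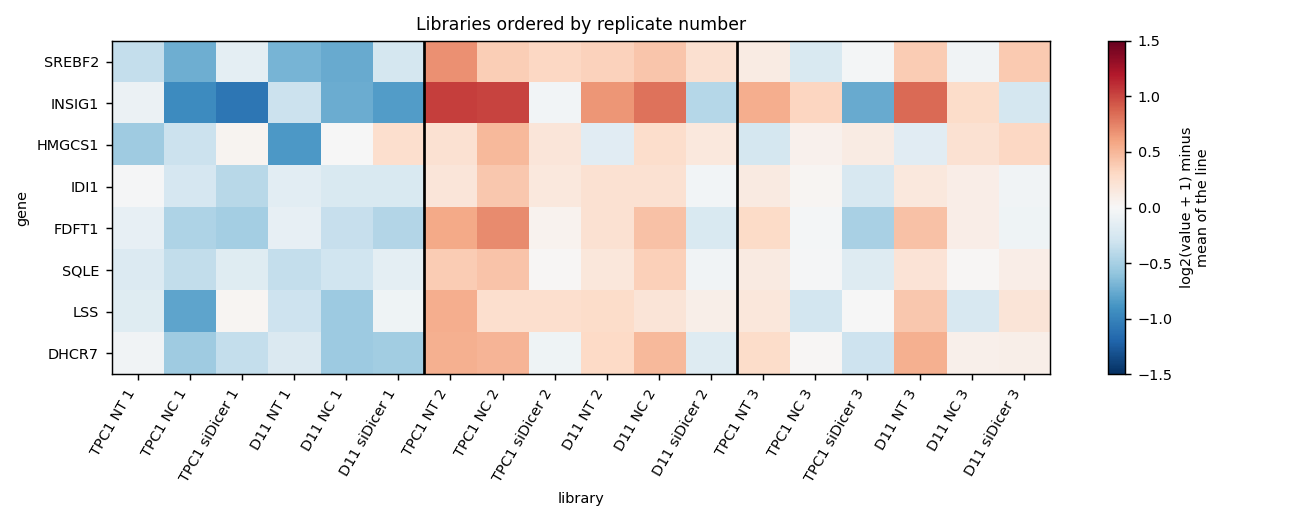
Log2(value + 1) of the 8 genes (rows) in 18 libraries (columns, ordered by replicate number), minus the mean of the line, from blue (lower) to red (higher). Libraries numbered 1 are mostly blue across rows and libraries numbered 2 mostly red, while INSIG1 is pale or blue in every siDicer library.

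After the group means were removed, the 8 genes followed one another over the 18 libraries. Pearson's r over the 28 pairs ran from 0.762 (HMGCS1 with IDI1) to 0.993 (SQLE with LSS), with a median of 0.947. The libraries share their depth scaling and, in part, their handling, so r is given as a description. With only the line means removed, HMGCS1 followed the other 7 least (r = 0.357) and SQLE followed them most (r = 0.98).

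Since SREBF2 shared this spread, the values of the other 7 genes were also divided by the SREBF2 value of the same library. This ratio was chosen after the values were seen and is given as a description with no test. INSIG1 was 26.9%, 28.4% and 30% of SREBF2 in TPC1 (NT), 19.2%, 34.7% and 32.7% (NC) and 11.6%, 17.4% and 13.5% (siDicer). In D11 it was 29.2%, 27.9% and 31.0% (NT), 22.8%, 29.8% and 28.4% (NC) and 15%, 14.1% and 14.2% (siDicer). Every siDicer library was below every control library of its line. FDFT1 was 36.7% to 50.5% in TPC1 controls and 29.0% to 33.5% with siDicer, and 42.8% to 68.9% and 33.7% to 40.9% in D11. DHCR7 was 29.2% to 39.8% in TPC1 controls and 24.8% to 28% with siDicer, and 31.7% to 45.9% and 24.4% to 27.4% in D11. These 3 of 7 genes did not overlap, lower, in either line, where 3.83% of all genes in TPC1 and 6.1% in D11 did so relative to SREBF2. HMGCS1, IDI1, SQLE and LSS overlapped their controls on this scale. Division by SREBF2 narrows the spread of genes that follow it between replicates and can widen that of other genes. The shares of all genes are therefore no fair measure for these 3 genes, and no enrichment is read from them. Without the division, INSIG1, FDFT1 and DHCR7 overlapped their controls in each line, where 9.91% (TPC1) and 14.1% (D11) of all genes were lower without overlap.

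**Figure D4:**
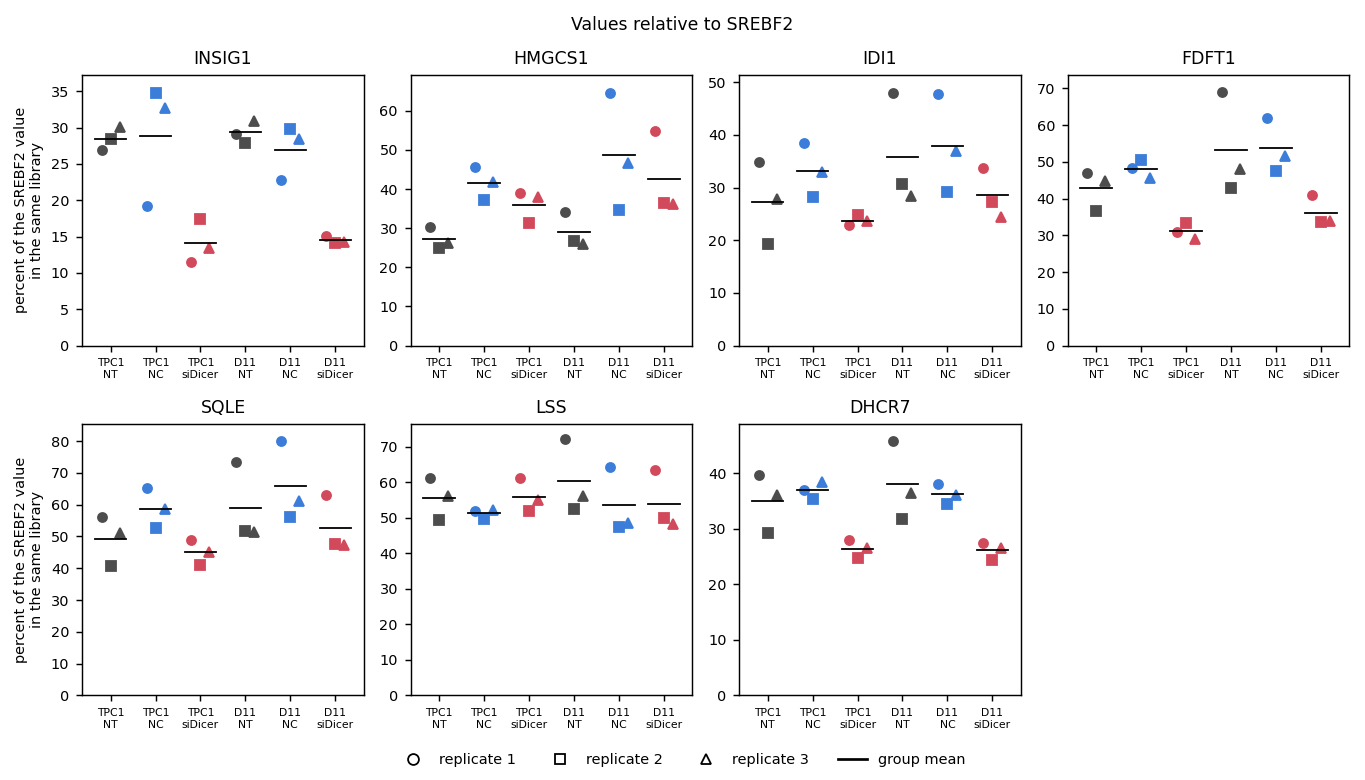
Value of 7 genes as a percent of the SREBF2 value in the same library (y axis from 0), by group, with a symbol for each replicate number and a line at the group mean. INSIG1, FDFT1 and DHCR7 in siDicer libraries lie below all control libraries of their line, and the other 4 genes overlap.

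Beside the 8 genes, 14 other enzymes of the pathway were tested. None was called with siDicer in TPC1 and 2 were called lower in D11, EBP, the sterol isomerase (-0.63, limma adjusted p = 0.00355, with 497 to 548 against 687 to 1003 in controls), and HSD17B7, which acts in demethylation of sterols at carbon 4 (-0.64, adjusted p = 0.0106, with 185 to 221 against 251 to 419). In D11, 6.75% of all genes were called lower. The median change of the 14 was -0.27 in TPC1 and -0.26 in D11, and 11 of 14 lay below 0 in each, where 54.7% and 54.3% of all genes did. EBP fell under the fold minimum without the first D11 NT library (-0.57) and with NC alone as the control (-0.50), and HSD17B7 without D11 NC replicate 2 (-0.56). HSD17B7 also missed the threshold without D11 siDicer replicate 3 (adjusted p = 0.0663) and in the fit of all 18 libraries (adjusted p = 0.0507).

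Of 6 genes that act in SREBP processing, C12orf49 was called lower in each line, where 4.16% of all genes in TPC1 and 6.75% in D11 were. This gene, also named SPRING1, is known to be needed for SREBP activation in the Golgi. It measured 1292, 1324 and 1188 (TPC1 NT), 1405, 1170 and 1349 (NC) and 639, 1043 and 688 (siDicer). In D11 it measured 1153, 1219 and 1191 (NT), 1493, 1154 and 1308 (NC) and 767, 722 and 590 (siDicer). The siDicer libraries were below all controls in TPC1 and in D11. The log2 changes were -0.74 ± 0.14 (SE, limma adjusted p = 0.00855) and -0.86 ± 0.12 (adjusted p = 0.000535), where 9.91% and 14.1% of all genes were lower without overlap. In TPC1 the call was lost without siDicer replicate 1 (-0.60, adjusted p = 0.0586), without siDicer replicate 3 (-0.65, adjusted p = 0.0636) and with NT alone as the control (-0.72, adjusted p = 0.0546).

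Uptake and transport were followed in 11 genes. LRP1, a large endocytic receptor of lipoproteins and other ligands, was called higher with siDicer in D11 (0.84 ± 0.28, SE, limma adjusted p = 0.0468), where it measured 7239, 8692 and 8689 against 2330 to 7153 in controls. In this comparison 5.26% of all genes were called higher and 11% were higher without overlap. LRP1 was also called higher in D11 with the replicate number as a block (limma adjusted p = 0.00876). In TPC1 it measured 7728, 10297 and 8114 against 3937 to 9538 (0.66, adjusted p = 0.0871). The D11 call was lost, with adjusted p between 0.0648 and 0.154, when any 1 of D11 NT replicate 3, NC replicates 1 and 3 or the 3 siDicer replicates was left out, with no filter on low values (0.0649) or against NT alone (0.0609), and the TPC1 change was called without NT replicate 2 (0.82, adjusted p = 0.00674) and with NC alone (0.81, adjusted p = 0.0389). STARD4, a sterol carrier named after its values were seen, had changes of -0.86 (adjusted p = 0.143) in TPC1 and -0.70 (adjusted p = 0.0661) in D11, and in D11 was called lower with the replicate block (adjusted p = 0.0104).

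Of the 11 efflux and miR-33 target genes, 10 were tested. CROT, with 2 seed matches, was called lower in TPC1 (-0.87, limma adjusted p = 0.0126) and D11 (-0.80, adjusted p = 0.00913), at 148 to 188 and 162 to 216 with siDicer against 206 to 380 and 238 to 458 in controls. No other gene of the list was called with siDicer. Of all genes, 4.16% in TPC1 and 6.75% in D11 were called lower, and 9.91% and 14.1% were lower without overlap. The call of CROT was lost without siDicer replicate 3 in TPC1 (-0.83, adjusted p = 0.075) and in D11 (-0.70, adjusted p = 0.0619), and in TPC1 with NT alone as the control (-0.68, adjusted p = 0.0787). ABCA1, with 4 matches and named after its values were seen, had changes of -0.35 in TPC1 (adjusted p = 0.396) and -0.02 in D11 (adjusted p = 0.977). The medians of the list were -0.02 in TPC1 and in D11. Mature miR-33a was not measured, since libraries of this kind select polyadenylated RNA, and the row of its precursor held 0 reads in all 18 libraries, which allows at most a value of 2.58 to 5.32.

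**Figure D5:**
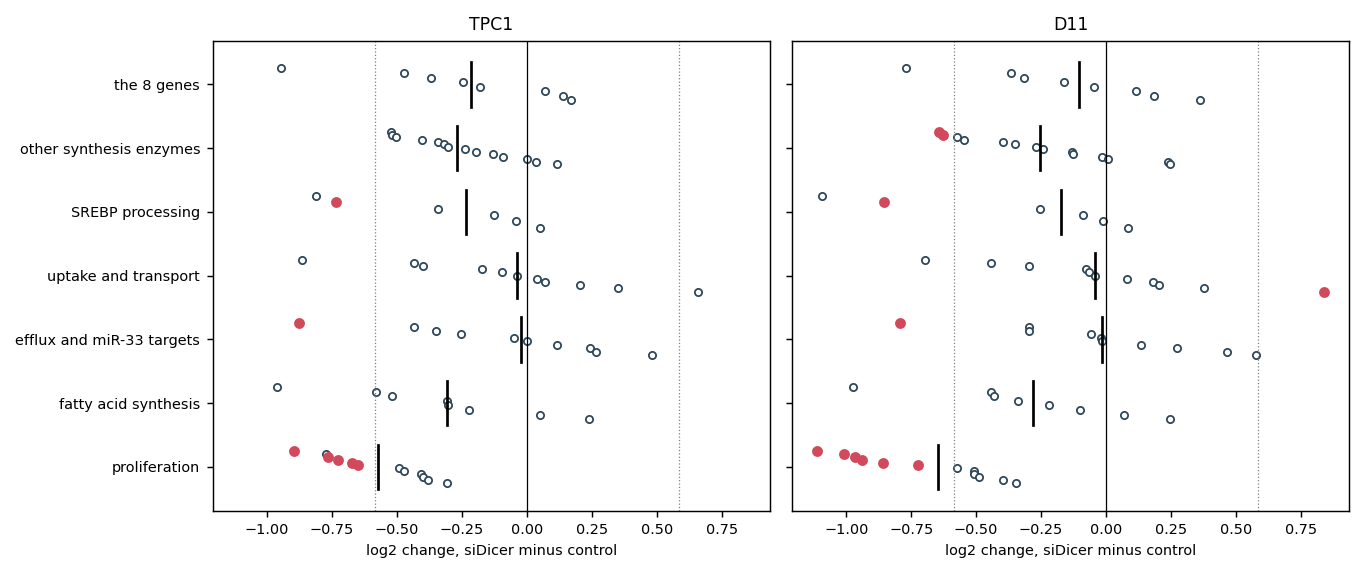
Log2 change, siDicer minus control (x axis), of each tested gene of 7 lists in TPC1 (left) and D11 (right), with a bar at the median of the list, filled points for called genes and dotted lines at a 1.5-fold change. None of the 8 genes is filled, while the proliferation list has 5 filled points in TPC1 and 6 in D11, with medians of -0.57 and -0.65.

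Genes whose pattern was most like the mean of the 8 were ranked by Pearson's r over the 18 libraries, with line means removed. TNFRSF1A, a receptor of tumour necrosis factor, came first (r = 0.962), then RIMS3 (0.953), PLEKHG3 (0.942), AL021453.1 (0.929), AC099508.1 (0.927), AC104452.1 (0.923), SMARCA1 (0.922), GPR160 (0.92), BCORL1 (0.917) and SCD, the stearoyl-CoA desaturase (0.916). Of 12500 genes compared, 227 (1.82%) had r over 0.8. Of the lists, 4 of 13 other synthesis enzymes passed that level (median r 0.692), 3 of 8 fatty acid synthesis genes (0.636), 2 of 9 efflux and miR-33 target genes (-0.072), 1 of 6 SREBP processing genes (0.209), 1 of 11 uptake and transport genes (0.283) and 0 of 12 proliferation genes (0.112). Marker genes did so as well, with 1 of 2 thyroid markers (0.75), 0 of 2 epithelial markers (-0.367) and the 1 other cell type marker at 0.736.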

How the data were processed

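mRNA was sequenced in 18 libraries, and the authors deposited 1 table of 58302 genes. Per the methods and labels, paired-end reads were mapped to GRCh38 with STAR 2.5.3a, counted per gene of Ensembl release 90 with HTSeq 0.9.1 and scaled by the authors to 20 M aligned reads, and the deposited values are whole numbers, treated as a normalised score and not as counts. Whether counting used strand is not given in the sources used here, so IDI1, FDFT1, HMGCS1, LSS, SREBF2 and DICER1, whose exons overlap antisense genes, are uncertain to that extent. The same holds for other named genes, among them LRP1, STARD4, SREBF1, ELOVL6, CCNA2, PLK1 and PAX8. The step between values gave the worth of 1 read and so the depth (11.3 to 23.2 M reads), and between 98.13% and 100.0% of the values of a library were whole numbers of reads. Intervals and floors (3 reads) cover counting error only where they rest on reads.

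The authors name the edgeR quasi-likelihood method, which needs counts, so limma 3.58.1 in R 4.3.3 (lmFit, eBayes with trend) was run on log2(value + 1), and fold changes on this scale understate those of low genes. A gene was tested if 3 or more libraries of the fit held at least 10. Adjustment (Benjamini-Hochberg) ran over all genes, and a change was called at 1.5-fold or more with an adjusted p under 0.05. Control means NT and NC joined, as in the study. D11 against TPC1 carried transfection as a term. The fits were checked on simulated data. The settings and results of that check are not given here, so nothing is drawn from it about the tests of the cholesterol synthesis genes. Alternatives were median-of-ratios scaling, other filters, pseudocounts of 0.1 and 10, voom on recovered reads, NT or NC alone, a replicate block, 1 fit over 18 libraries, no fold minimum and leaving out each library, and the block with NC alone was added after the data were seen.

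Libraries of D11 with the same replicate number correlated in their deviations from group means in 9 of 9 pairs over 0.1 (0.108 to 0.504), while those with different numbers ran from -0.419 to 0.206. The numbers were therefore taken, from the data, to pair D11 libraries, as their meaning is not in the labels.

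The 8 genes and the 9 other lists (other synthesis enzymes, SREBP processing, uptake and transport, efflux and miR-33 targets, fatty acid synthesis, proliferation, thyroid, epithelial and other cell type markers) were chosen with earlier results of these data known. Named beside the 8 and DICER1 were the genes of each list called in any of the 6 comparisons, at most 8 by adjusted p, or else the 2 with the smallest adjusted p, and the 10 genes most like the 8. Some genes of these lists are not reported here. Positions come from GENCODE 44, in which 57532 gene identifiers were found. Figures were drawn with matplotlib 3.10.9.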

Additional observations from a re-analysis of the deposited data

How the results depend on the processing

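For the 8 genes, no setting that kept all libraries and the joined control changed a direction, except that SQLE for NC against NT in D11 went to -0.001 under median-of-ratios scaling. With NT alone as the control, LSS went to -0.088 in TPC1 and -0.046 in D11, and SREBF2 to -0.10 in TPC1. Of the 8 genes, 0 were called with siDicer in TPC1 and D11 in the main setting, 1 with the replicate block in each line and 1 with the block and NC alone, INSIG1 each time, and 2 with NT alone in D11. With NC alone and no block, INSIG1 was called in neither line. The block called 7.49% of all genes lower in D11. The shares of all genes called with the block in TPC1, with NC alone or with NT alone are not given here. In TPC1, 8 of 9 same-number pairs were over 0.1 (0.099 to 0.542), so the numbers were not taken to pair its libraries, although all 9 TPC1 libraries (8 of 9 in D11) correlated best with one of their own number, a hint from the data and not the design. There the block gave INSIG1 an adjusted p of 0.00717 by limma and also called LRP1 higher and STARD4 lower with siDicer, and SREBF1 (adjusted p = 0.00367) and SCD (adjusted p = 0.0153) lower in NC than NT.
The replicate block moved the genes called from 20 to 565 (NC against NT, TPC1), from 63 to 315 (NC against NT, D11) and from 191 to 369 (D11 against TPC1). In D11 it changed no other call of the 8 genes. Without a fold minimum, siDicer calls came to 2552 genes (TPC1) and 4086 genes (D11). With no filter on low values NC against NT gave 13 genes in TPC1 and 8 in D11, and with a mean of at least 100 D11 against TPC1 gave 45. Leaving out 1 library gave 427 to 2094 genes for siDicer in TPC1 (427 without siDicer replicate 3, 446 without replicate 1 and 2094 without replicate 2), 1374 to 2464 in D11 (1374 without siDicer replicate 3), 0 to 55 and 0 to 101 for NC against NT in TPC1 and D11, and 0 to 1 of the 8 genes with siDicer in each line.
Directions that turned when 1 library was left out all belong to changes whose intervals held 0. With siDicer, the range was -0.01 to 0.26 for LSS and -0.071 to 0.21 for SREBF2 in TPC1 and -0.12 to 0.021 for SQLE in D11. For NC against NT in TPC1 it was -0.51 to 0.01 for DHCR7, -0.49 to 0.10 for FDFT1, -0.21 to 0.12 for IDI1, -0.81 to 0.17 for INSIG1 and -0.29 to 0.11 for SQLE. In D11 it was -0.44 to 0.072 for DHCR7, -0.30 to 0.09 for FDFT1, -0.17 to 0.086 for IDI1, -0.63 to 0.15 for INSIG1, -0.17 to 0.18 for SQLE and -0.50 to 0.17 for SREBF2. For the interaction it was -0.093 to 0.21 for DHCR7, -0.053 to 0.29 for FDFT1, -0.04 to 0.25 for IDI1, -0.054 to 0.47 for INSIG1, -0.16 to 0.11 for LSS and -0.062 to 0.31 for SREBF2. The causes were not tested. For each of the 8 genes the SD within groups (0.23 to 0.67 on the log2 scale) was above the largest counting error of any library (0.034 to 0.079).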

Other observations

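Fatty acid synthesis genes, the arm of lipid synthesis that SREBP-1 is known to drive, were followed in 8 genes and none was called with siDicer by limma in the main setting, in TPC1 or in D11. Their median log2 change was -0.31 in TPC1 and -0.28 in D11, and 6 of 8 lay below 0 in each, where 54.7% and 54.3% of all genes did. ME1, the malic enzyme that supplies NADPH, had -0.52 (adjusted p = 0.0165) in TPC1, under the fold minimum, and -0.44 (adjusted p = 0.0806) in D11. It was called lower in TPC1 with NT alone as the control (-0.63, limma adjusted p = 0.034). In D11 it was called lower without siDicer replicate 1 (-0.68, adjusted p = 0.0143), in a range of -0.681 to -0.276 when 1 library was left out. ELOVL6, a fatty acid elongase, had -0.58 (adjusted p = 0.0374), just under the fold minimum, and -0.43 (adjusted p = 0.0561). In TPC1 it was called lower by voom on recovered reads (-0.593, adjusted p = 0.0319) and by limma without siDicer replicate 2 (-0.85, adjusted p = 0.000614). Leaving out 1 library gave -0.848 to -0.433 there. SCD had -0.96 (adjusted p = 0.345) and -0.97 (adjusted p = 0.32, called lower in D11 with the replicate block, adjusted p = 0.0417), with a range of 1855 to 26736 over the 18 libraries.

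SREBF1, the gene of SREBP-1, was named after its values were seen. It measured 4049, 6127 and 4761 (TPC1 NT), 1504, 4039 and 2831 (NC) and 1438, 3324 and 1738 (siDicer). Its D11 values were 2985, 4903 and 4904 (NT), 958, 4448 and 2266 (NC) and 716, 2147 and 1757 (siDicer). NC was below NT without overlap in TPC1, by 4039 against 4049 at the nearest (log2 change -0.93, limma adjusted p = 0.351), while in D11 the groups overlapped (-0.96, adjusted p = 0.387). The share of all genes that were lower without overlap between NC and NT in TPC1 is not given here, so little rests on this separation. With siDicer the change against the joined controls was -0.81 (adjusted p = 0.186) in TPC1 and -1.09 (adjusted p = 0.118) in D11. These controls include NT. Within the numbered sets, siDicer minus NC was -0.065, -0.281 and -0.704 in TPC1 and -0.42, -1.05 and -0.367 in D11. The differences from NT were -1.493, -0.882 and -1.453 in TPC1 and -2.058, -1.191 and -1.48 in D11. In D11 the fit with the replicate block called it lower for siDicer (adjusted p = 0.0261) and for NC against NT (adjusted p = 0.0463).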
